A study of Mus musculus with 16 samples.

Results

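Mir132, Mir212, Mir129-1, Mir129-2, Mir124a-1, Mir9-2 and Mir134 are 7 of the 1228 microRNA genes on assembled mouse chromosomes, and all make microRNAs known from neurons. They were chosen by name, from earlier results on these data, and were placed at their RefSeq positions on assembly GRCm38.p6, the build called mm10. Each was searched for regions of the authors' fasted list that overlap the gene or lie within 5 kb of it. Over all 1228 microRNA genes, 5.94% had such a region, and of the 7 genes 4 had one and 3 did not. Because the fasted list itself chose the genes, their regions are described below without a test.

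The study profiled beta-hydroxybutyrylation of lysine 9 of histone H3, a mark whose acyl group comes from the ketone body beta-hydroxybutyrate, by chromatin immunoprecipitation and sequencing. The labels describe C57BL/6J mice of postnatal day 35, some without food for 48 h and some with food ad libitum. Chromatin came from a homogenate of occipital cortex, so neurons and glia are mixed, and a difference in the share of a cell type cannot be told apart from a difference in the mark per cell. Each feeding state had 4 immunoprecipitated and 4 input libraries, 16 in all. The deposited values were a list of 8404 regions enriched in fasted mice and a list of 1 region enriched in ad libitum fed mice. Each region has a log likelihood ratio (log-LR), the authors' own score for the difference between the feeding states. Neither list gives a value for a single library, which leaves the depth unknown and the spread between mice unmeasured. Regions marked to the same extent in fasted and fed mice would not be in them.

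A microRNA is cut from a hairpin in a longer primary transcript, first in the nucleus and then in the cytoplasm, and guides an Argonaute protein to messenger RNAs that pair with its seed (bases 2 to 8 from the 5′ end). Transcription of Mir132 and Mir212 is induced by neuronal activity and BDNF through the factor CREB, and miR-132 is known for its part in dendrite growth and in the plasticity of visual cortex. miR-124 and miR-9 are abundant in brain and act in neuronal differentiation. miR-134 limits the size of dendritic spines, and miR-129 acts in synaptic downscaling.

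The mature microRNAs are shown because several of the 7 genes encode the same seed, which capitals mark. Sequences are from RefSeq, build GRCm38.p6, where 6 of the 7 hairpins matched by symbol.
mmu-miR-132-3p: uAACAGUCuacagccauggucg
mmu-miR-212-3p: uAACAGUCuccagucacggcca
mmu-miR-129-5p: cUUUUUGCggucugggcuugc
mmu-miR-129-2-3p: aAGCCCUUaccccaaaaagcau
mmu-miR-9-5p: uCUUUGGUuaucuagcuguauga
mmu-miR-134-5p: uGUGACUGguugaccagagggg

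miR-132-3p and miR-212-3p carried the same seed, which no other gene of the table shared, and matched at 17 of 22 positions. Their differences, with the miR-132-3p base first and positions counted from the 5′ end, were A10C, C14U, U17C, U20C and G22A, all outside the seed. Mir129-1 and Mir129-2 encode an identical miR-129-5p, and Mir9-1, Mir9-2 and Mir9-3 encode an identical miR-9-5p. The seed of miR-134-5p was found for Mir134 alone.

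Mir132 and Mir212 lay inside 1 wide fasted region. The hairpins stand 204 bp apart on the plus strand of chromosome 11, between the protein-coding genes Hic1, which encodes a transcriptional repressor, and Ovca2. The region at chr11:75173301-75173831 was 531 bp wide and covered all 66 bases of Mir132 and all 91 bases of Mir212. It began 87 bp before the Mir212 hairpin and ended 84 bp after the Mir132 hairpin. Its log-LR was 5.58. In width it exceeded 96.1% of the fasted list, which has a median of 205 bp. In log-LR it exceeded 64.2% of the list, which has a median of 4.96.

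Another fasted region lay upstream of both hairpins. It spanned chr11:75172760-75172965, was 206 bp wide and had a log-LR of 6.43. It ended 423 bp before Mir212 and 717 bp before Mir132, and touched no annotated gene. Both regions together reached over 1072 bp with 335 bases between them. A region with a neighbour this near is not rare in the list, as 20.4% of all fasted regions had another within 1 kb. The region inside Hic1, at chr11:75165914-75166171, lay outside the 5 kb limit, at 7.22 kb from Mir212 and 7.51 kb from Mir132. Its log-LR was 6.11 and its width was 258 bp.

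The hairpins are shown because they lie wholly inside fasted regions. Capitals mark the mature sequences of both arms, and the order runs 5′ to 3′ along the gene's own strand, plus for Mir212 and Mir132 and minus for Mir129-2.
Mir212, chr11:75173388-75173478: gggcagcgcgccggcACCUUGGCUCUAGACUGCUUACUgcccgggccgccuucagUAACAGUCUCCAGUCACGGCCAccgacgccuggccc
Mir132, chr11:75173682-75173747: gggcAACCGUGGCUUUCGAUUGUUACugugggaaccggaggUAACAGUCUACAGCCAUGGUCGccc
Mir129-2, chr2:94241364-94241453: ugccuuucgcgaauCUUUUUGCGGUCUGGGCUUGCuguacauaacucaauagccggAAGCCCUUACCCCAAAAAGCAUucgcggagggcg

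The 3 hairpins share a high number of CpG dinucleotides. Mir212 held 8, Mir129-2 held 7 and Mir132 held 4, against a median of 1 and an upper quartile of 2 over the 1005 hairpins of the table. Their GC content was 69.2% for Mir212, 57.6% for Mir132 and 53.3% for Mir129-2, against a median of 51.7%. Of the 3 genes with no region within 5 kb, Mir129-1 held 2 CpG dinucleotides, Mir9-2 held 1 and Mir134 held 1. Of the other family copies, Mir9-3, also without such a region, held 3, and Mir9-1, with a region 57 bp away, held 2. No hairpin sequence was available for Mir124a-1. The counts were not scaled to length, which was 91 bases for Mir212, 90 for Mir129-2, 66 for Mir132 and 71 to 73 for Mir134, Mir9-2 and Mir129-1. Mir134 had a GC content of 60.6%, above that of Mir132, so the 3 covered hairpins do not stand apart in GC content alone. The genes were chosen from the fasted list, and Mir132 and Mir212 share 1 region. CpG counts of the other microRNA genes inside fasted regions are not given, and a link between CpG number and the mark was not tested.

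The fasted region at Mir129-2 had the highest log-LR near any of the 7 genes. It spanned chr2:94241344-94241653 on chromosome 2, was 310 bp wide and had a log-LR of 7.76, above 87.4% of the fasted list. It covered all 90 bases of the hairpin, with 20 bp to spare on the downstream side and 200 bp on the upstream side. The hairpin is inside Mir670hg, a long non-coding RNA gene of 104468 bp, and the region lay 23450 bp from the nearer end of that gene. The same region covered Mir129b, a microRNA gene of 65 bp on the opposite strand whose sequence is the reverse complement of part of the Mir129-2 hairpin. Chromatin immunoprecipitation has no strand, so the 2 genes cannot be told apart here. The nearest protein-coding gene was Ttc17, 59113 bp from the region. No other fasted region lay within 20 kb.

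Mir129-1, which encodes the same miR-129-5p, had no fasted region within 5 kb. Its nearest regions were 157 kb and 189 kb away on chromosome 6. The nearer one, at chr6:29179442-29179654 with a log-LR of 12.23, overlapped the protein-coding gene Prrt4. Between these regions, over 346 kb, Mir129-1 was the only annotated microRNA gene. The nearest protein-coding gene to Mir129-1 was Lep, the leptin gene, at 37.5 kb.

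**Figure D1:**
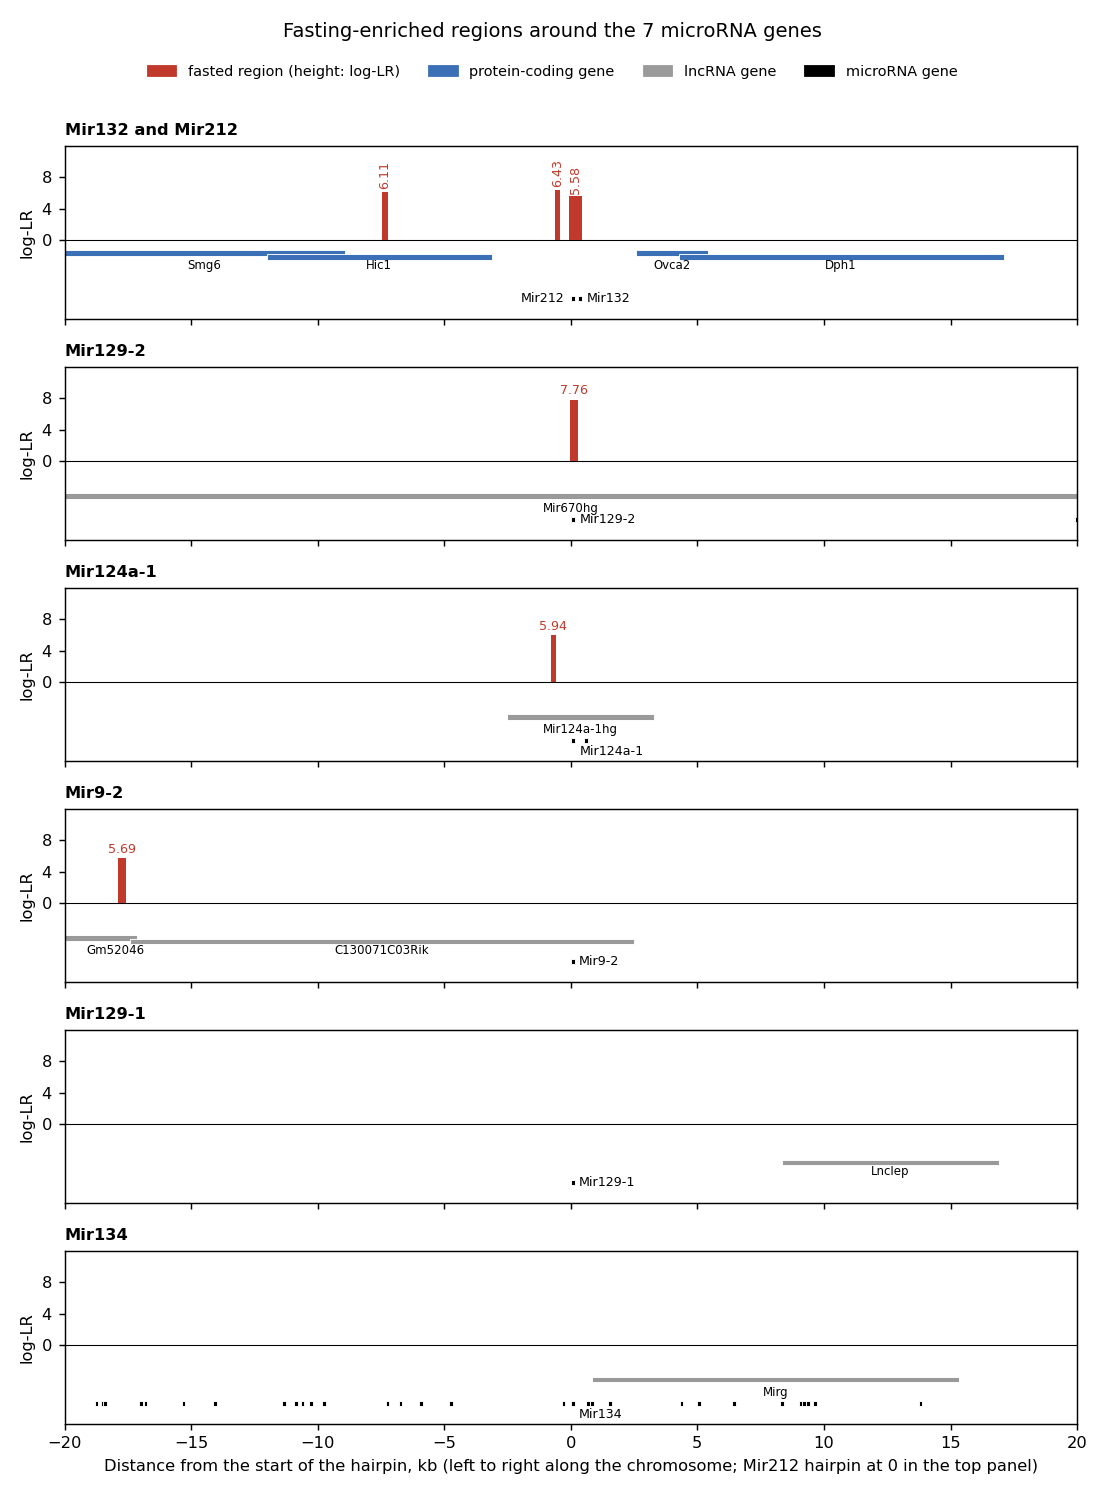
Fasted regions (red, height is the deposited log-LR) and annotated genes within 20 kb of the hairpins of the 7 microRNA genes, with distance from the hairpin start in kb on the horizontal axis. Regions sit on the Mir132, Mir212 and Mir129-2 hairpins, beside Mir124a-1 and near the start of the Mir9-2 host gene, and none is drawn around Mir129-1 or Mir134.

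Mir124a-1 had a fasted region beside its hairpin. The region at chr14:64589889-64590051 was 163 bp wide, had a log-LR of 5.94 and lay 606 bp from the hairpin. It was narrower than most of the list, with 29.4% of fasted regions narrower still. It lay inside the long non-coding host gene Mir124a-1hg, also called Rncr3, 1774 bp from the nearer end of that gene. The microRNA gene Mir3078, in the same host, was 1.13 kb from the region. The nearest protein-coding gene was Kif13b, a kinesin gene, 62441 bp away.

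Mir9-2 had no fasted region within 5 kb of the hairpin, but one lay at the start of its host gene. The hairpin is near the 3′ end of C130071C03Rik, a long non-coding RNA gene of 19928 bp on chromosome 13. The region at chr13:83720930-83721231 was 302 bp wide and had a log-LR of 5.69. It ended 150 bp before the annotated host gene and 17.6 kb upstream of the hairpin. It lay wholly inside Gm52046, another long non-coding RNA gene, which overlaps the start of the host. The nearest protein-coding gene was Mef2c, a neuronal transcription factor gene, 53851 bp from the region.

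The region overlapped 1 of the 3 promoter windows that RefSeq starts give for C130071C03Rik, each running 250 bases before to 50 bases after a start. That window is shown because it is the stretch of a member's host promoter that the fasted list covers. It lies on the plus strand of build GRCm38.p6, and capitals mark the 101 bases inside the fasted region.
C130071C03Rik, chr13:83721131-83721430: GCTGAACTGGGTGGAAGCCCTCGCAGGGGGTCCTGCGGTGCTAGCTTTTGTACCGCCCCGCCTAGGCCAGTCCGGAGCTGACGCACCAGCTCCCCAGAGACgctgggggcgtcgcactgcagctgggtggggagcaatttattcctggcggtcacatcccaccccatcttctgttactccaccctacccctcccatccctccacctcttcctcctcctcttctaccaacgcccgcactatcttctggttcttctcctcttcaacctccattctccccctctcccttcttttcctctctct

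Among all 32851 promoter windows of the table, 2.44% overlapped a fasted region. The window held 12 CpG dinucleotides, against a median of 7 over all windows, and had a GC content of 60.7%, against 52.7%. On either strand it held 1 match to TGACG, the core of a CREB-type element, starting at base 79, and 1 match to GGGCGG, a GC box, starting at base 53. Both lay in the part covered by the region. TGACG was found in 20.8% and GGGCGG in 35.7% of all windows. Neither TGACGTCA, the full element, which contains TGACG, nor the E-box CACGTG was in the window. Of all windows, 1.79% held TGACGTCA and 7.15% held CACGTG.

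Mir134 had no fasted region near it. It belongs to a dense run of microRNA genes on chromosome 12, in the imprinted Dlk1-Dio3 domain, and 17 other microRNA genes start within 10 kb of it. The nearest fasted regions were 123 kb to the right, at chr12:109856882-109857088 with a log-LR of 4.81, and 940 kb to the left, at chr12:108793958-108794095 with a log-LR of 5.36. The stretch between them, which by its definition holds no fasted region, held 61 microRNA genes, 4.97% of all those annotated.

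**Figure D2:**
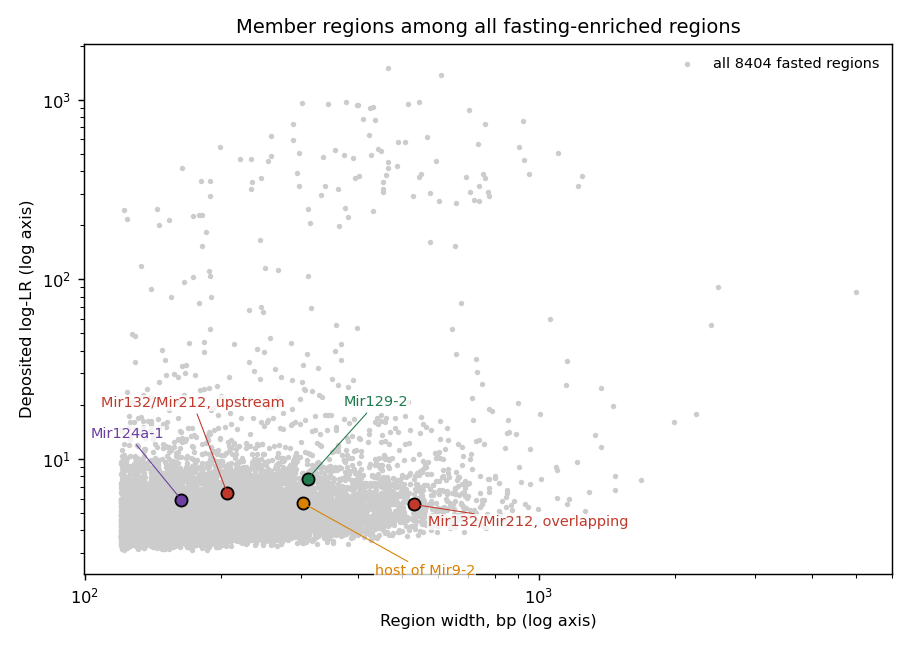
Width in bp (horizontal, log axis) and deposited log-LR (vertical, log axis) of the 8404 fasted regions in grey, with the regions at Mir132 and Mir212, Mir129-2, Mir124a-1 and the Mir9-2 host in colour. The coloured points lie between log-LR 5.58 and 7.76, against a list median of 4.96. The region over Mir132 and Mir212 is the widest of them at 531 bp, wider than 96.1% of the list. The genes were chosen from this list, so the place of their regions in it is a description only. Over the 73 microRNA genes with a region within 5 kb, the nearest region had a median log-LR of 4.86.

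The other gene copies of these families were mixed in the same way. Mir124a-3 had 3 fasted regions within 5 kb, at 10, 305 and 665 bp from the hairpin, with log-LR of 4.01, 3.94 and 5.40. They spanned 1117 bp on chromosome 2 in DNA 10106 to 11002 bp from the nearest protein-coding gene, Ythdf1. Mir124a-2 had none within 5 kb, and its nearest region, with a log-LR of 4.12, was 8.98 kb away. For miR-9, Mir9-1 had a region of 240 bp with a log-LR of 4.49, 57 bp downstream of the hairpin. Mir9-3 had its nearest region 232 kb away. Each of the 3 families with several gene copies thus had at least 1 copy with a fasted region within 5 kb and at least 1 copy without. The copies make the same mature miR-129-5p and miR-9-5p, so a level of either could not be assigned to 1 locus.

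Over all 1228 microRNA genes, 5.94% had a fasted region within 5 kb and 1.22% were overlapped by one. The 7 genes had 4 and 3 of these, counts that the choice of genes fixed. The median distance from a microRNA gene to a fasted region was 89.2 kb, so Mir134 and Mir129-1 lay farther from one than the median and Mir9-2 nearer. The ad libitum region was within 5 kb of none of the 1228 genes (0.0%).

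**Figure D3:**
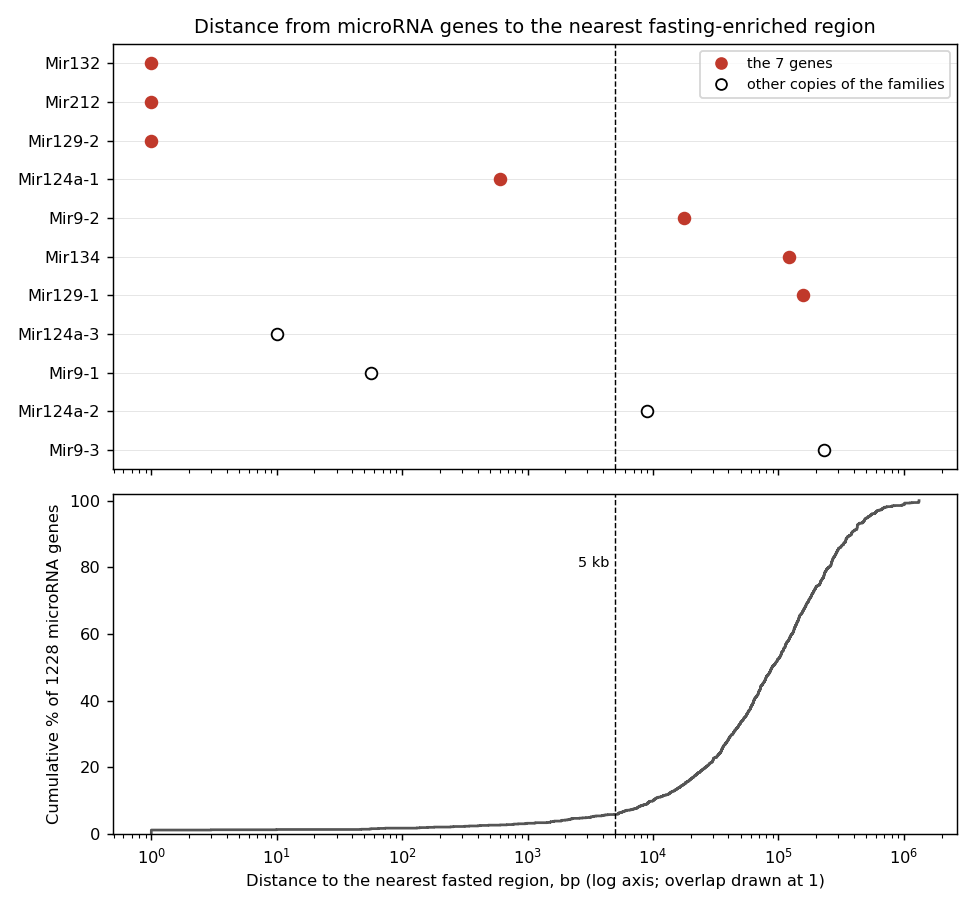
Distance from each gene to the nearest fasted region in bp, on a log axis with overlap drawn at 1 bp, for the 7 genes (filled) and the other copies of their families (open), above the cumulative share of all 1228 microRNA genes. Mir132, Mir212 and Mir129-2 are at overlap and Mir124a-1 at 606 bp, left of the dashed line at 5 kb, and Mir9-2, Mir134 and Mir129-1 are to the right of it.

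Most regions that overlap a microRNA gene lay at a protein-coding gene. In all, 12 regions overlapped 15 microRNA genes, and 10 of the 12 lay in or within 1 kb of a protein-coding gene. Examples are Mir3077 in Sap18, Mir7075 in Terf2 and Mir3091 in the ribosomal protein gene Rps21. The other 2, over Mir132 with Mir212 and over Mir129-2 with Mir129b, were more than 1 kb from every protein-coding gene. So were the regions beside Mir124a-1, Mir124a-3 and Mir9-1. Among the 63 distinct nearest regions of the microRNA genes with one within 5 kb, 12 (19.0%) were that far, and among all fasted regions on assembled chromosomes 44.8% were, so the setting is not particular to these genes. The log-LR of the 12 regions ran from 3.94 to 7.76, with Mir129-2 at the top. Of the 15 overlapped genes, 10 lay wholly inside their region, among them Mir132, Mir212 and Mir129-2. Their number is small and their selection was made with these values in view, so this is a description.

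A wider list of brain microRNAs held 69 further genes. Of these, 6 (8.70%) had a fasted region within 5 kb, near the 5.94% of all microRNA genes. Besides Mir9-1 and Mir124a-3 they were Mir125a (log-LR 7.18, 3.21 kb away), Mir195a (5.80, 2.20 kb), Mir125b-2 (4.71, 1.62 kb) and Mir26b (3.62, 2.19 kb). Mir26b lies inside Ctdsp1, a phosphatase gene whose messenger RNA is a reported target of miR-124, and its region also lay inside Ctdsp1, within 1 kb of an end.

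Genes that make and use microRNAs had a fasted region within 1 kb of an end in 10 of 23, or 43.5%, against 11.9% of all protein-coding genes. For this list and those below, no share was taken over genes active in cortex alone. The lists were also chosen with earlier results of these data known, so the contrast is a description. Drosha, which cuts the hairpin from the primary transcript in the nucleus, had a region with a log-LR of 5.84, shared with the neighbouring gene 6030458C11Rik. Ddx5 (4.53, shared with Polg2) and Ddx17 (4.54) encode helicases that work with Drosha. Ran (6.79) encodes the GTPase that drives export of the hairpin, and its region of 533 bp was about as wide as that over Mir132. Ago4 (5.38) encodes an Argonaute protein, Tnrc6c (4.75) its silencing partner and Ddx6 (5.99) a helicase of repressed messenger RNAs. Tut7 (5.52) and Tut4 (3.95) add uridines to precursor hairpins, and Adar (3.51) edits double-stranded RNA. The other 13 genes had none at an end, among them Dgcr8, the partner of Drosha, Dicer1, which cuts the hairpin in the cytoplasm, and Ago2. The nearest region was 5.62 kb from Dgcr8, 554 kb from Dicer1 and 363 kb from Ago2. Over the 10 genes the median log-LR was 5.06, against 4.99 over all 2609 protein-coding genes with such a region. At a log-LR of at least 5 the count was 5 of 23 (21.7%), against 5.9% of all protein-coding genes. Counting any region that overlaps the gene, 12 of 23 (52.2%) held one, against 16.4% of all protein-coding genes. These add Tnrc6a (5.18) and Tarbp2 (3.59), and give a higher value for Ddx5 (5.71).

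Regulators of these microRNA genes had a region within 1 kb of a gene end in 5 of 14 (35.7%), against 11.9% of all protein-coding genes. At a log-LR of at least 5 the count was 1 of 14 (7.14%), near the 5.9% of all protein-coding genes at that limit. Crebbp, which encodes the CREB-binding acetyltransferase, had a log-LR of 7.05. Ntrk2, the BDNF receptor gene, had 4.59, Mef2d 4.56, Crtc2, a CREB coactivator gene, 4.53 (shared with Slc39a1), and Crem, a CREB relative, 3.90. Creb1 itself had none, with its nearest region 86.6 kb away. Bdnf, at 164 kb, and Rest, a repressor of neuronal genes at 279 kb, had none either. The median over the 5 genes was 4.56. Counting any region that overlaps the gene, 7 of 14 held one, against 16.4% of all protein-coding genes. These add Mef2a (5.70) and Sin3a (5.45), which encodes a corepressor, and give higher values for Mef2d (2 regions, the higher at 9.35) and Ntrk2 (3 regions, the highest at 6.05).

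Messenger RNAs reported as targets of these microRNAs came from 31 genes, of which 7 (22.6%) had a region within 1 kb of an end, against 11.9% of all protein-coding genes. For miR-132 and miR-212 these were Ache, the acetylcholinesterase gene (log-LR 5.61), the acetyltransferase gene Ep300 (5.45), Rasa1 (5.02), which encodes a Ras inhibitor, and Foxo3 (4.79), a transcription factor gene of the fasting response. Pum2, a reported miR-134 target that encodes a translational repressor, had 6.44. Map1b, for miR-9, had 5.20, and Ctdsp1, for miR-124, had 3.62. None of the 5 reported miR-129 targets had one. Of these, Fmr1 and Dcx, on chromosome X, had their nearest regions 855 and 625 kb away. The median log-LR over the 7 genes was 5.20. The gap to all protein-coding genes depended on the rule. Counting any region that overlaps the gene, 6 of 31 (19.4%) held one, against 16.4%. Within 5 kb of the gene it was 9 of 31 (29.0%) against 20.3%. At a log-LR of at least 5 it was 5 of 31 (16.1%) against 5.9%. The lists were chosen with earlier results of these data known, and no test was made between them and other genes.

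**Figure D4:**
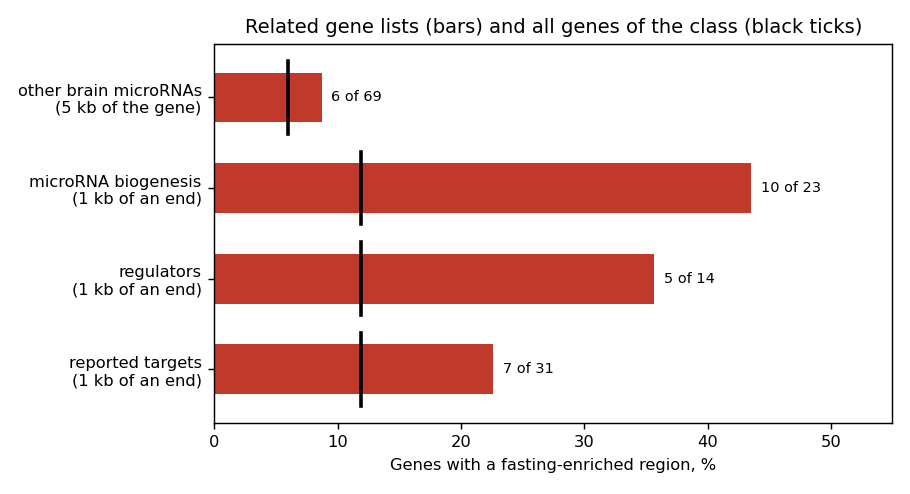
Share of genes with a fasted region, in percent, for 4 related lists (bars, with counts) and for all genes of the same class (black ticks, 5.94% of microRNA genes and 11.9% of protein-coding genes). Bars for microRNA biogenesis (10 of 23), regulators (5 of 14) and reported targets (7 of 31) reach past their tick, and the bar for other brain microRNAs (6 of 69) ends near it.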

How the data were processed

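The submitters' processing notes name Bowtie2, MACS2 and mm10 but give neither their versions nor what each was used for. Per the file headers, a deposited list has 1 row per region with its position and a log-LR, treated here as a score. The sources used here do not state its log base or cutoff, how depth was scaled or whether libraries were pooled. Starts were read as counted from 0, since the smallest width is then exactly 120 bp, and are printed from 1.

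Gene positions were read from RefSeq for GRCm38.p6, assembled chromosomes only, and sequences from RefSeq tables of that build. A distance runs between nearest edges. A host gene contains the whole hairpin. Protein-coding genes were counted when a region lay within 1 kb of either end. No test was run, because no file gives values by library. The distance step was tested on simulated intervals. The genes and lists were chosen with earlier results of these data known. Genes named are the 7, their family copies, listed genes with a region, their neighbours, and a few genes named after their values were seen, among them the listed genes without a region. Of the brain list, 76 of 77 symbols matched, and of the biogenesis list 23 of 24. Python 3.11.15, numpy 2.4.6, pandas 2.3.3 and matplotlib 3.10.9 were used.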

Additional observations from a re-analysis of the deposited data

How the results depend on the processing

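Of the 7 genes, 4 had a fasted region within 5 kb, and the count ran from 3 to 5 over the settings tried. It was 3 when only overlap counted and 3 among regions at least 200 bp wide, both without Mir124a-1. These settings gave 1.22% and 3.42% of all microRNA genes. It was 5 when host genes counted, with Mir9-2, a rule that raised the share of all microRNA genes from 5.94% to 28.7%. Merging regions within 1 kb turned the 4 regions at these genes into 3. For all microRNA genes the count of 73 became 15 at overlap, 40 at 1 kb, 122 at 10 kb, 37 at a log-LR of at least 5, 42 at a width of at least 200 bp and 352 with host genes. For the brain list of 76 genes, which includes the 7, the count of 10 (13.2%) became 3 (3.95%) at overlap, all among the 7. The share of all microRNA genes at overlap was 1.22%. The brain list had 6 (7.89%) at 1 kb, against 3.26%, and 13 (17.1%) at 10 kb, against 9.93%. Keeping only regions with log-LR 5 or higher left 7 (9.21%), against 3.01%. Keeping only those 200 bp or wider also left 7 (9.21%), against 3.42%. With host genes the brain list had 18 (23.7%), below the 28.7% of all microRNA genes. These brain-list shares include the 7, which were chosen from the fasted list. At a log-LR of at least 5, biogenesis genes had 5 of 23, regulators 1 of 14 and reported targets 5 of 31, while all protein-coding genes had 5.9%. Where any region overlapping the gene counted, these lists had 12 of 23, 7 of 14 and 6 of 31, against 16.4%. These shifts follow from stricter or wider counting rules. No paired analysis was possible because no deposited file gives values by library, and leaving out replicates was not run for the same reason.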
